A study of Mus musculus with 9 samples.

Results

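MHC class I molecules display peptides from inside the cell to CD8 T cells, and nearly every nucleated cell carries them. The 10 genes described here cover that route from end to end. They are the classical heavy chains H2-K1 and H2-D1, the light chain B2m, the peptide transporter genes Tap1 and Tap2, the loading factor Tapbp, the immunoproteasome subunits Psmb8, Psmb9 and Psmb10, and the transactivator Nlrc5. They were picked by name, for their place in this route, with earlier results of these data known. They are 10 of the 54347 genes in the deposited table, and all 10 were among the 15532 genes expressed highly enough to be tested.

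RNA was sequenced from 6 pancreatic neuroendocrine tumors of INS-p25OE mice and from 3 samples of normal islets, 1 library each. INS-p25OE mice carry Ins2-rtTA and tetOp-p25GFP, so that doxycycline given in the drinking water from weaning switches on p25, an activator of the kinase Cdk5, in insulin-expressing cells. The labels set M1, M2 and M3 apart from M4, M5 and M6 by a word that was read, with the paper, as insulin, and these tumors are called functional and non-functional here. The islets NI1, NI2 and NI3 are labelled C57BL/6, the background of all the mice, and the study took its normal controls from littermates without the transgenes. M2 came from a female and the other 8 libraries from males, and ages at collection and the animals behind each library are not given in the sources used here, so p-values measure only the spread between these libraries, which may be technical.

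The islet label of NI1 has to be read with care. Cdk5r1, the gene whose product p35 gives p25, stood at 149 to 401 CPM (counts relative to the library's total, scaled by edgeR's TMM method) in the tumors, at 18.4 CPM in NI2 and at 12.5 CPM in NI3, but at 280 CPM in the library labelled NI1. Over all tested genes, NI1 and the tumor M6 were the nearest pair of libraries, with a median difference of 0.105 on the log2 scale, against 0.205 for the next pair, NI2 and NI3. Among the members, NI1 and M6 differed by at most 0.53 on the log2 scale (Nlrc5), and for several members another library was nearer to NI1 than M6 was. Values for the members against islets are therefore given with NI1 and also without it. Libraries held 36468280 to 63637175 counts, and a count of 3 stood for 0.0425 to 0.119 CPM. No member had fewer than 226 counts in a library, so depth did not limit the members' values below. Some acinar and T cell markers lay under a count of 3 in some libraries. Mitochondrial genes took 32.1% of the counts of M4 and 1.76% to 8.41% of those of the other libraries. In bulk tissue, fewer cells of a type and less RNA per cell cannot be told apart.

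Class I genes are held at a low level in resting endocrine cells and are induced by interferons. NF-kB and interferon regulatory factors bind short elements before the start sites of the heavy chain genes and B2m, while Nlrc5 is recruited to a neighboring element. Peptides are cut by the proteasome, whose catalytic subunits are exchanged for Psmb8, Psmb9 and Psmb10 in immune or interferon-exposed cells. Tap1 and Tap2 pump the peptides into the endoplasmic reticulum, and Tapbp (tapasin) holds the empty heavy chain and B2m next to the transporter.

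Of the members, 7 lie on mouse chromosome 17, in or near the MHC, and B2m lies on chromosome 2 and Psmb10 and Nlrc5 on chromosome 8. In RefSeq's start sites for GRCm38.p6, Tap1 and Psmb9 begin 226 bases apart and point away from each other. RefSeq promoters, from 250 bases before to 50 bases after the start site, were at hand for 8 members. Stretches of 30 bases are shown for 3 of them, because they hold letters of types through which these genes are known to respond. Those of H2-K1 and H2-D1 hold NF-kB type and interferon type letters, and that of B2m holds interferon type letters alone. Capitals mark the motifs GGGGATTCC and, in either direction, GAANNGAAA or GAAANNGAA.
H2-K1, minus strand, chr17:34000429-34000458: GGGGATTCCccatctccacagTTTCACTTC
H2-D1, plus strand, chr17:35262923-35262952: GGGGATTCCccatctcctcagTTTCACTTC
B2m, plus strand, chr2:122147537-122147566: tataagaacatGAAACTGAAaatgggaaag

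The stretches of H2-K1 and H2-D1 had the same letters except for A18T, counted from 1 at the 5′ end with the base of H2-K1 first. The H2-D1 stretch begins 171 bases before its start site, and that of H2-K1 begins 111 or 125 bases before, since RefSeq lists 2 start sites. The letters GGGGATTCC were found in 0.25% of 32851 promoters of this length on either strand, and among the members only in H2-K1 and H2-D1. GAANNGAAA was found in 7.52% of promoters and, among members, in the same heavy chain genes. GAAANNGAA was found in 8.56% and, among members, in B2m alone. The STAT type letters TTCNNNGAA were found in 8.30% of promoters and, among members, in Psmb8. These are matches of letters only, and RNA levels carry no measurement of binding.

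Levels were compared between members per kb of exon. B2m was the most abundant, with 313 CPM per kb as the mean of the tumors and 369 CPM per kb as the mean of the islets. H2-D1 followed with 182 CPM per kb in tumors and 221 CPM per kb in islets, and H2-K1 with 156 and 235 CPM per kb, so that H2-D1 was the higher of them in tumors and H2-K1 in islets. Tapbp lay lower, at 55.4 CPM per kb in tumors and 54.5 CPM per kb in islets. Below it, in order of the mean of all 9 libraries, came Tap2, Psmb10, Psmb8, Tap1 and Psmb9, between 5.56 and 16.04 CPM per kb in tumors on average. Nlrc5, the transactivator, was the scarcest, at 0.925 CPM per kb in tumors and 1.36 CPM per kb in islets. Over the 9 libraries, H2-K1 and Tapbp, Tapbp and Tap2, and Psmb9 and Nlrc5 were the neighbors in this order whose ranges did not meet, and every other pair of neighbors overlapped. The exon length counts every annotated exon of a gene, so a gene with many minor transcripts is placed too low.

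**Figure D1:**
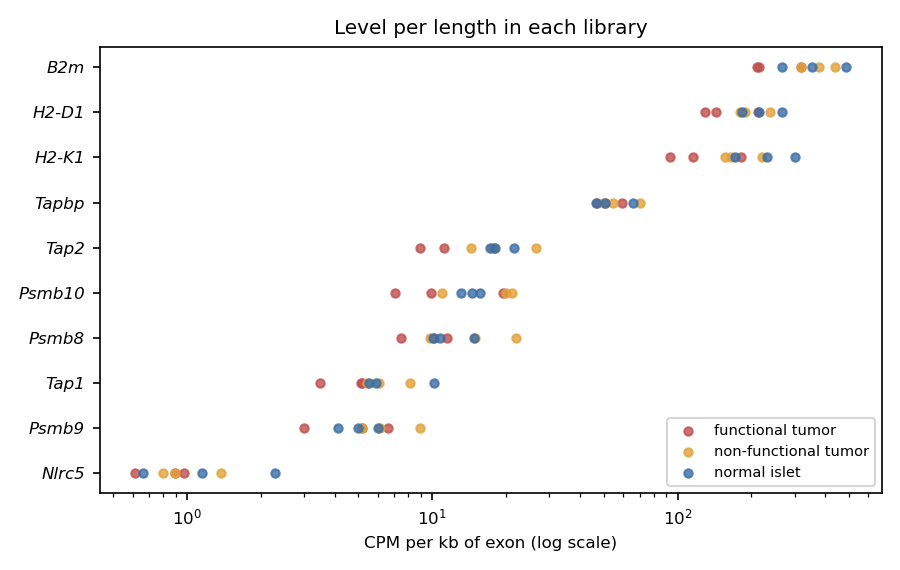
Level of each member in each of the 9 libraries, as TMM-scaled CPM per kb of annotated exon on a log axis. B2m, H2-D1 and H2-K1 stand above the rest in every library, and Nlrc5, at 0.614 to 2.28 CPM per kb, lies below all of them.

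No member passed an adjusted p of 0.05 between tumors and islets, although the heavy chain genes lay lower in tumors on average, H2-K1 most. In this comparison 0.258% of the tested genes passed (40 genes, quasi-likelihood F test of edgeR, Benjamini-Hochberg adjusted over 15532 genes), and 19.8% had an unadjusted p under 0.05, none of them a member. Of the 15532 genes, DESeq2 called 770 higher and 493 lower, and limma-voom called 0 higher and 33 lower. Neither called a member. Without NI1, 8.51% of the tested genes passed by edgeR, again with no member among them. The fitted log2 fold change was below 0 for 6 of the 10 members, with a median of -0.24, against 47.5% of all tested genes and a median of 0.03.

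H2-K1 (ENSMUSG00000061232, chromosome 17, 33996017 to 34000347), a heavy chain that binds peptide, had 275, 535 and 339 CPM in M1, M2 and M3. It had 484, 651 and 460 CPM in M4, M5 and M6, and 505, 883 and 679 CPM in NI1, NI2 and NI3. All 6 tumors lay below NI2 and NI3, while NI1 lay inside the range of the tumors. A position of all tumors below NI2 and NI3 was met by 16.3% of the tested genes and by H2-K1 alone among members. The log2 fold change of H2-K1 in tumors against islets was -0.59 (SE, the standard error, 0.30, 95% interval -1.25 to 0.07, adjusted p = 0.296 by edgeR). Without NI1 it was -0.77 (adjusted p = 0.170), and without NI1 and M6 it was -0.77 (adjusted p = 0.210).

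H2-D1 (ENSMUSG00000073411, chromosome 17, 35262730 to 35267499), the other classical heavy chain of this strain, had 335, 549 and 370 CPM in M1, M2 and M3. The non-functional tumors had 485, 617 and 462 CPM and the islets 473, 685 and 552 CPM. Its tumors and islets overlapped, with a log2 fold change of -0.28 (SE 0.24, adjusted p = 0.549 by edgeR). Its levels followed those of H2-K1 over the 9 libraries (Pearson r = 0.979, a description, since the libraries share their groups). Near-identical heavy chain genes can exchange reads. Of the distinct stretches of 75 bases, the read length, in annotated transcripts, 3.10% of those of H2-K1 and 5.40% of those of H2-D1 also occur in other genes, most often in H2-Q10 for H2-K1 and in H2-Q1 for H2-D1. For Tapbp the share was 1.10%, and for the other 7 members it was 0. Transcripts were compared in their own direction only. Overlap with a gene on the opposite strand, as between the annotated Tap1 and Psmb9, was not counted. Summing the counts of 24 protein-coding class I heavy chain genes, of which H2-K1 and H2-D1 made up 63.2% to 75.9%, gave a log2 fold change of -0.43 (adjusted p = 0.418 by edgeR), and -0.56 without NI1 (adjusted p = 0.311).

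B2m (ENSMUSG00000060802, chromosome 2, 122147686 to 122153083), the light chain shared by all class I molecules, had 184, 274 and 181 CPM in the functional tumors. It had 325, 379 and 273 CPM in the non-functional tumors and 303, 420 and 228 CPM in NI1, NI2 and NI3. The islets alone thus spanned 1.84-fold between NI2 and NI3, and its fitted log2 change, tumors over islets, was -0.24 (SE 0.29, adjusted p = 0.676 by edgeR). Human and mouse tumors can lose surface class I through loss of B2m. Here each library held at least 8210 counts of B2m. These counts come from bulk tissue with other cells in it, so loss of B2m in the tumor cells was not tested.

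**Figure D2:**
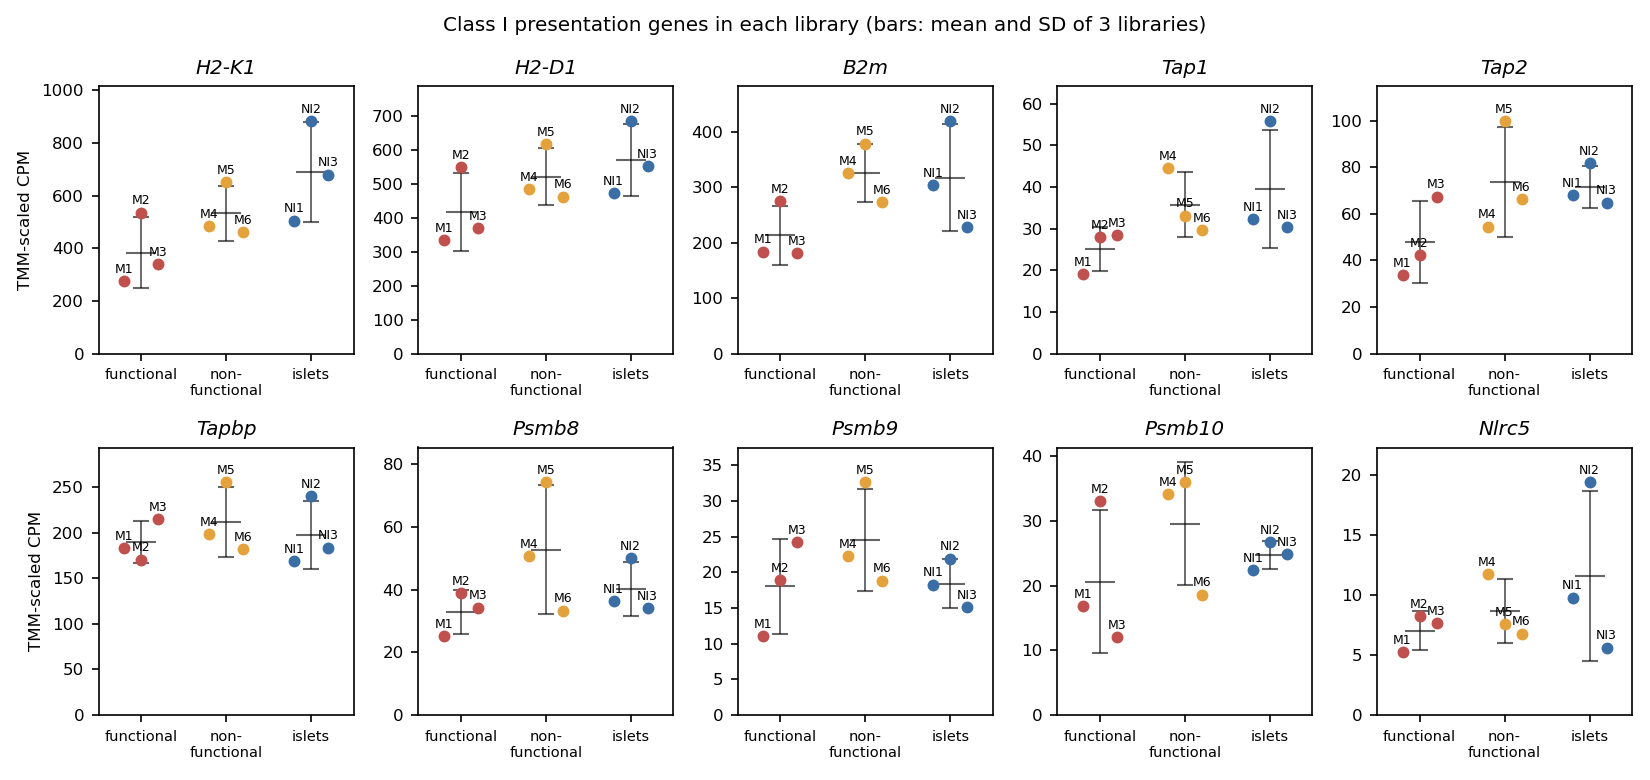
TMM-scaled CPM of the 10 members in each library, with the mean and SD of the 3 libraries of each group. M1 is the lowest tumor for 7 of the 10 members, M5 is the highest tumor for 8, and NI2 is the highest islet library for all 10.

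Neither transporter gene passed the test between tumors and islets. Tap1 (ENSMUSG00000037321, chromosome 17, 34187553 to 34197225) had 19.1, 28.0 and 28.4 CPM in the functional tumors. It had 44.5, 33.1 and 29.6 CPM in M4, M5 and M6 and 32.3, 55.9 and 30.3 CPM in the islets. Every functional tumor lay below every islet library, a position that 13.6% of the tested genes had. Every functional tumor also lay below every non-functional tumor, as for 6.24% of the tested genes. In the all-tumor comparison its log2 fold change was -0.38 (adjusted p = 0.471 by edgeR).

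Tap2 (ENSMUSG00000024339, chromosome 17, 34203527 to 34216321), its partner in the transporter, had 33.7, 42.2 and 67.4 CPM in M1, M2 and M3. The non-functional tumors had 54.5, 99.9 and 66.2 CPM and the islets 67.9, 81.6 and 64.8 CPM. Tumors lay on both sides of the islets, with M5 highest of all libraries, and the log2 fold change was -0.24 (adjusted p = 0.690 by edgeR). Tapbp (ENSMUSG00000024308, chromosome 17, 33915899 to 33929292) was the steadiest member, with 171 to 255 CPM in the tumors and 169 to 240 CPM in the islets. Its highest library was 1.51 times its lowest, and its log2 fold change was 0.02 (SE 0.19, adjusted p = 0.959 by edgeR), so that its 95% interval was the narrowest of the members, from -0.40 to 0.45.

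None of the 3 immunoproteasome subunits passed the test between tumors and islets. Psmb8 (ENSMUSG00000024338, chromosome 17, 34197721 to 34201454) had 25.1, 38.9 and 34.2 CPM in the functional tumors and 50.7, 74.2 and 33.2 CPM in the non-functional tumors, against 36.4, 49.97 and 34.1 CPM in the islets. M5 was highest and M1 lowest, on either side of the islets. Psmb9 (ENSMUSG00000096727, chromosome 17, 34181987 to 34187764) had 11.02, 18.9 and 24.2 CPM in M1, M2 and M3, 22.3, 32.6 and 18.8 CPM in M4, M5 and M6, and 18.3, 21.9 and 15.1 CPM in the islets. Psmb10 (ENSMUSG00000031897, chromosome 8, 105935735 to 105938444) had 16.8, 33.1 and 12.0 CPM in M1, M2 and M3, 34.2, 35.97 and 18.6 CPM in M4, M5 and M6, and 22.4, 26.8 and 24.9 CPM in the islets. For each of these subunits the tumors reached both above and below the islets. The log2 fold changes in tumors against islets were 0.09, 0.21 and 0.02 for Psmb8, Psmb9 and Psmb10 (adjusted p = 0.905, 0.733 and 0.979 by edgeR), with SEs of 0.32, 0.30 and 0.35.

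Nlrc5 (ENSMUSG00000074151, chromosome 8, 94434356 to 94527272), which assembles on class I promoters, had 5.22, 8.24 and 7.62 CPM in the functional tumors. It had 11.7, 7.57 and 6.76 CPM in the non-functional tumors and 9.77, 19.4 and 5.60 CPM in NI1, NI2 and NI3. The islets therefore held both the highest and nearly the lowest value, with NI2 at 3.45 times NI3. Its log2 fold change was -0.56 (SE 0.38, adjusted p = 0.436 by edgeR), and without NI2 it was 0.03.

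Without NI1, the log2 fold changes in tumors against islets were -0.40 for H2-D1, -0.27 for B2m, -0.50 for Tap1, -0.27 for Tap2 and -0.67 for Nlrc5. Those of Tapbp, Psmb8, Psmb9 and Psmb10 were -0.08, 0.02, 0.20 and -0.04. Leaving NI1 out thus gave a lower value for each of these members and turned the sign of Tapbp and Psmb10, both close to 0. The smallest adjusted p among these 9 members was 0.346, for Tap1.

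When the tumor groups were taken apart, all 10 members had lower mean levels in functional tumors than in islets and than in non-functional tumors, but none passed the threshold. Among functional tumors and islets 0.476% of the tested genes passed (74 genes, edgeR), and without NI1 8% passed. The median log2 fold change of the members was -0.51, against 0.02 for all tested genes, of which 48.6% lay below 0. H2-K1 had the lowest log2 fold change among members, -0.85 (SE 0.33, 95% interval -1.59 to -0.10, unadjusted p = 0.0296, adjusted p = 0.195 by edgeR), and was the only member with an unadjusted p under 0.05. Under DESeq2 its adjusted p was 0.0633, the smallest that any member had in any setting. By edgeR 3280 genes, 21.1% of those tested, had an unadjusted p under 0.05. Without NI1 the log2 fold changes were -1.03 for H2-K1 (adjusted p = 0.105) and -0.78 for Tap1 (adjusted p = 0.171). Tap1 was the only member with all functional tumors below all islets, a position that 13.6% of the tested genes had. Without NI2 the median log2 fold change of the members was -0.25, with 8 of 10 below 0. Without M1 it was -0.35, with 9 of 10 below 0.

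Between non-functional tumors and islets 0% of the tested genes passed with all libraries (2246 genes had an unadjusted p under 0.05, edgeR, and DESeq2 called 242 genes higher and 152 lower) and 4.06% passed without NI1. No member was among them in any of these fits. The members lay on both sides of 0, with 4 of 10 below and a median of 0.04. The highest were Psmb9 at 0.42 (SE 0.33, adjusted p = 0.545) and Psmb8 at 0.39 (SE 0.31, adjusted p = 0.542), and the lowest was Nlrc5 at -0.42 (SE 0.46, adjusted p = 0.669). Without NI1 the members ran from -0.55 for H2-K1 (adjusted p = 0.362) to 0.41 for Psmb9 (adjusted p = 0.556).

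Functional tumors were also set directly against non-functional tumors. No gene passed by edgeR, 0% of those tested, with or without NI1. By edgeR 1598 genes, 10.3% of those tested, had an unadjusted p under 0.05, none of them a member. DESeq2 called 22 genes higher and 89 lower but no member. The fitted log2 fold change was below 0 for 10 of 10 members, with a median of -0.49, against 49.2% of all tested genes and a median of 0.01. Psmb8 had the largest difference at -0.69 (SE 0.31, 95% interval -1.39 to 0.02, adjusted p = 0.494), followed by Tap2 at -0.62 (SE 0.30, adjusted p = 0.512) and B2m at -0.61 (SE 0.28, adjusted p = 0.499). Without NI1 and M6 the value for Psmb8 was -0.93 (adjusted p = 0.262). Tapbp had the value nearest to 0, at -0.16 (SE 0.22, adjusted p = 0.822). The functional and non-functional values of Tap1 did not overlap, a position 6.24% of the tested genes had in the same direction, and those of the other 9 members did. These comparisons share libraries with each other, and the same 3 functional tumors stand behind both sets of values below 0. With library totals in place of TMM scaling, the median of all genes moved to 0.32 in this comparison and to 0.38 in functional tumors against islets, and 8 and 6 of the 10 members then lay below 0.

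**Figure D3:**
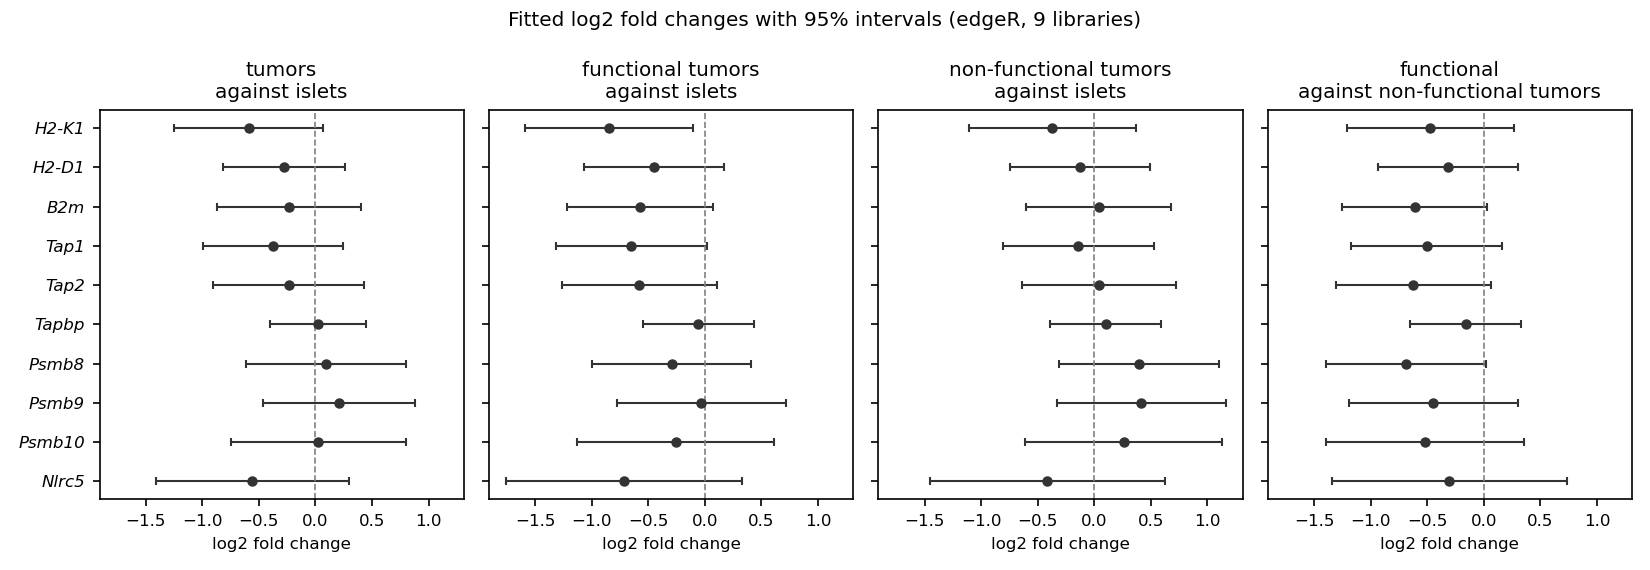
Fitted log2 fold change of each member (point) with its 95% interval (bar) in the 4 comparisons, from edgeR with all 9 libraries. Every interval crosses 0 except that of H2-K1 in functional tumors against islets, which runs from -1.59 to -0.10 before adjustment.

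In the proteasome, Psmb8, Psmb9 and Psmb10 take the places of Psmb5, Psmb6 and Psmb7. The ratio of each pair within a library does not depend on scaling. Counts of Psmb8 were 95.8%, 73.3% and 128% of those of Psmb5 in M1, M2 and M3, 138%, 184% and 100.2% in M4, M5 and M6, and 115%, 95.8% and 55.4% in NI1, NI2 and NI3. The tumors thus reached higher than the islets, with M2 and NI3 lowest. The log2 ratio was 0.20 ± 0.47 in tumors (SD, n = 6) and -0.24 ± 0.55 in islets (SD, n = 3), a difference of 0.44 (exact two-sided permutation test, p = 0.262, adjusted p = 0.786 over 3 ratios).

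Psmb9 counts were 15.7% to 52.5% of Psmb6 counts in tumors and 20.8% to 34.8% in islets. Tumors held both extremes, M1 and M3, which are both functional. The log2 ratio differed between tumors and islets by 0.05 (exact permutation p = 0.857, adjusted p = 0.857). Psmb10 counts were 21.2% to 48.5% of Psmb7 counts in tumors and 28.0% to 38.5% in islets, with a difference of -0.06 (exact permutation p = 0.786, adjusted p = 0.857). The smallest p that 6 tumors against 3 islets allow is 0.0238. After adjustment over 3 ratios, a ratio at that p could not pass 0.05 if the others lay far above it. The test thus could not call a shift in 1 ratio alone. M3 had the highest ratio for Psmb9 and the lowest for Psmb10, so the subunits did not keep step within that tumor.

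**Figure D4:**
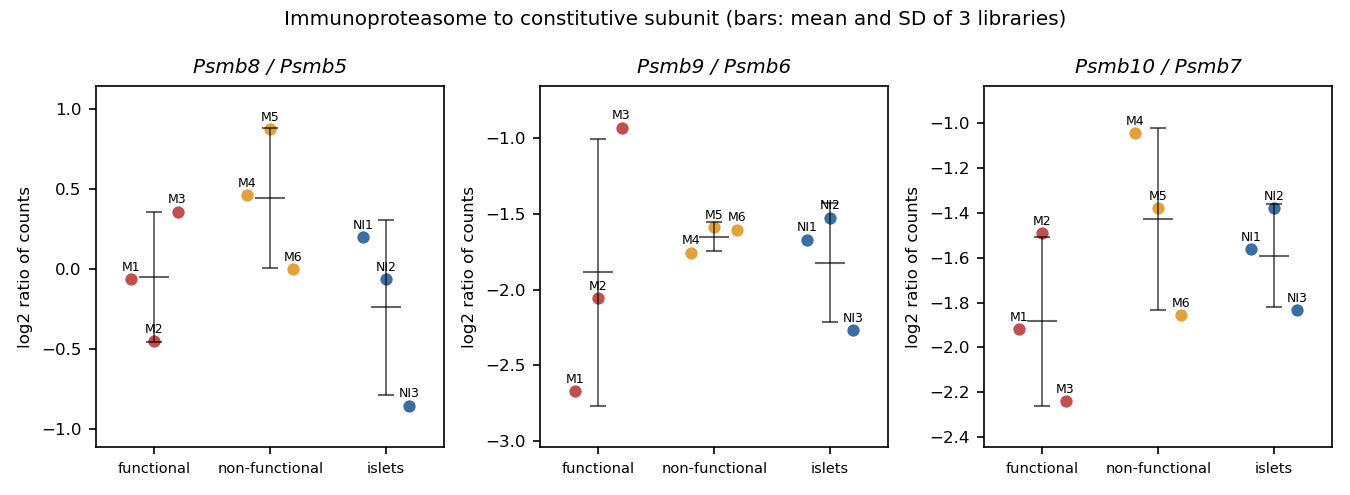
Log2 ratio of counts of each immunoproteasome subunit to the constitutive subunit it replaces, by library, with the mean and SD of the 3 libraries of each group. Tumors and islets overlap for all 3 ratios, and M3 is highest for Psmb9 to Psmb6 but lowest for Psmb10 to Psmb7.

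The members were also averaged to describe each library. As the mean z-score of log2(CPM + 1), NI2 was highest at 1.20 and M5 next at 1.07, and M1 was lowest at -1.42. The other 6 libraries lay between -0.52 and 0.42. B2m and Psmb8 were nearest to this average, of which each member is a part (Pearson r = 0.917 and 0.916 over 9 libraries, a description), and Tapbp and Psmb10 were farthest from it (r = 0.679 and 0.682). Tap1 and Nlrc5 followed each other closely (r = 0.900), whereas Tapbp and Psmb10 did not (r = 0.181). Of all other tested genes, the 5 most like the average were H2-K2 (r = 0.954), annotated as a heavy chain pseudogene, Unc13d (r = 0.938), Usp3 (r = 0.930), Rpl36a (r = 0.914) and the immunoglobulin segment Igkv4-63 (r = 0.908).

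With all 9 libraries, none of the other class I genes on the lists below passed between tumors and islets. Of 13 non-classical heavy chain genes tested, 12 lay below 0 in tumors against islets, where 47.5% of all tested genes did. Their median log2 fold change was -0.67, and -0.43 without NI2. None passed with all libraries and 3 passed as lower without NI1, where 3.17% of all tested genes did. H2-T23, whose product presents to NK cell receptors, had 35.7 to 83.5 CPM in tumors and 67.1, 174 and 103 CPM in NI1, NI2 and NI3. Its log2 fold change was -1.04 (adjusted p = 0.163 with NI1 and 0.0382 without it, edgeR). H2-T22 and H2-M3 passed without NI1 as well (adjusted p = 0.0484 and 0.0416). Without NI2 none of the 13 genes passed. H2-T23, H2-T22 and H2-M3 then had adjusted p of 0.611, 0.614 and 0.582 by edgeR.

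Among 5 loading and folding partners all lay below 0 (median -0.44) and none passed with or without NI1, Pdia3, the oxidoreductase bound to tapasin, having the smallest p (log2 fold change -0.89, adjusted p = 0.170). Among 14 constitutive proteasome subunits 9 lay below 0 (median -0.15), none passed, and Psma1 had the smallest p (-0.59, adjusted p = 0.180). Neither the 5 genes for proteasome activators and assembly (median 0.03, 2 below 0) nor the 12 genes for class I promoter factors (median -0.12, 8 below 0) held a gene that passed. Rela, a subunit of NF-kB, stood at 0.51 (adjusted p = 0.218).

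Interferon-stimulated genes set NI2 apart. They summed to 1722 CPM in NI2, against 460 to 610 CPM in the other islets, 476 to 500 CPM in functional tumors and 624 to 851 CPM in non-functional tumors. NI2 had the highest value for 28 of 34 genes of this list. Ifit1, an interferon-induced RNA-binding protein, had 88.5 CPM in NI2 and 3.45 to 10.8 CPM elsewhere. With NI2 left out, the median log2 fold change of the 10 members in tumors against islets was 0.02 in place of -0.24, and 4 of them lay below 0. Whether the interferon-stimulated genes of NI2 and its class I levels share a source was not tested.

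In tumors against islets 31 of these 34 genes lay below 0 (median -0.60), where 47.5% of all tested genes did. None passed, and 3 passed as lower without NI1, where 3.17% of all tested genes did. This rested on NI2. Without NI2, 11 of the 34 genes lay below 0, with a median of 0.17, and none passed. Of 17 interferon receptor and signaling genes, 11 lay below 0 (median -0.11), 8 without NI2, and none passed. Socs3, a feedback inhibitor of cytokine receptors, passed without NI1 (log2 fold change with all libraries -1.80, adjusted p = 0.126, and 0.0171 without NI1). Without NI2 its log2 fold change was -1.06 (adjusted p = 0.582 by edgeR). In functional against non-functional tumors 32 of the 34 interferon-stimulated genes lay below 0, with a median of -0.82 and none past the threshold.

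Class II genes, which present to CD4 T cells and are made mainly by antigen-presenting cells, marked M4. Their 9 genes summed to 2097 CPM in M4 and 208 to 536 CPM in functional tumors, 717 to 2097 CPM in non-functional tumors and 1108 to 1200 CPM in islets. Cd74, the invariant chain, had 879 CPM in M4 and 100.2 CPM in M1. All 9 lay below 0 in functional against non-functional tumors (median -1.62), and none passed. In tumors against islets 9 of 9 lay below 0 (median -0.52). Without NI1, 2 passed as lower, H2-Ob and H2-Oa (adjusted p = 0.0159 and 0.0461, edgeR), where 3.17% of all tested genes did. Without NI2 none of the 9 genes passed, and H2-Ob and H2-Oa had adjusted p of 0.377 and 0.582 by edgeR.

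Markers of other cells are given beside the members. With all 9 libraries only the B cell list held genes that passed. Without NI1, 5.34% of all tested genes passed as higher and 3.17% as lower. Without NI2, again only the B cell list held a gene that passed. Sums cover every listed marker, tested or not. B cell markers summed to 140 to 152 CPM in islets, 4.49 to 78.9 CPM in functional and 38.3 to 98.3 CPM in non-functional tumors. Ms4a1 and Pax5 fell in tumors with all 9 libraries (log2 fold changes -4.64 and -3.95, adjusted p = 0.00993 and 0.0185, edgeR), and also without NI1. Of the 5 B cell markers 3 passed as lower with all libraries, 4 without NI1 and 1, Ms4a1, without NI2. Cd79a passed in none of these fits (log2 fold change -0.38, adjusted p = 0.824 with all libraries), and it made up most of the summed level of M3 and M6, with 75.8 and 89.8 CPM. The 8 tested T and NK cell markers all lay below 0 (median -2.62, none passing with all libraries and 1 without NI1). The 10 listed markers summed to 22.8 to 57.4 CPM in islets, 7.02 to 8.60 CPM in functional and 6.46 to 31.0 CPM in non-functional tumors. Of these markers Cd3d and Klrb1c had no count in some library.

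Of 10 macrophage markers all lay above 0 (median 1.34), with 473 to 739 CPM in functional, 482 to 1310 CPM in non-functional tumors and 192 to 443 CPM in islets. Of these markers 3 passed as higher without NI1, where 5.34% of all tested genes did, and none passed without NI2. Leukocyte markers lay below 0 for 4 of 5 genes (median -0.76, 1 passing without NI1, Ptprc), with 94.6 to 122 CPM in functional, 114 to 291 CPM in non-functional tumors and 176 to 265 CPM in islets. Dendritic cell markers lay below 0 for 4 of 5 (median -1.45, none passing), with 16.9 to 26.7 CPM in functional, 26.8 to 41.7 CPM in non-functional tumors and 30.6 to 36.2 CPM in islets. Endothelial markers lay below 0 for 6 of 7 (median -0.65, none passing), with 366 to 965, 861 to 1199 and 1100 to 1218 CPM in the same order. Fibroblast markers lay above 0 for 6 of 6 (median 1.83, none passing), from 103 to 2049 CPM in non-functional tumors, 713 to 988 CPM in functional tumors and 120 to 182 CPM in islets.

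Beta cell markers summed to 18410 to 90540 CPM in functional tumors, 64340 to 116800 CPM in non-functional tumors and 121900 to 365100 CPM in islets, and lay below 0 for 6 of 9 genes (median -0.91, 1 passing without NI1, G6pc2). They were thus abundant in every library, tumors included. Acinar markers, from the exocrine pancreas, summed to 282 to 5164 CPM in islets, 20.02 to 184 CPM in non-functional and 0.766 to 1.05 CPM in functional tumors (6 of 6 below 0, median -5.78, 1 passing without NI1, Cela1). Amy2b, Cela2a, Cpa1 and Ctrb1 had no count in some library. Class I genes are read in all of these cell types, and the part of their shares in the members' levels was not tested.

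**Figure D5:**
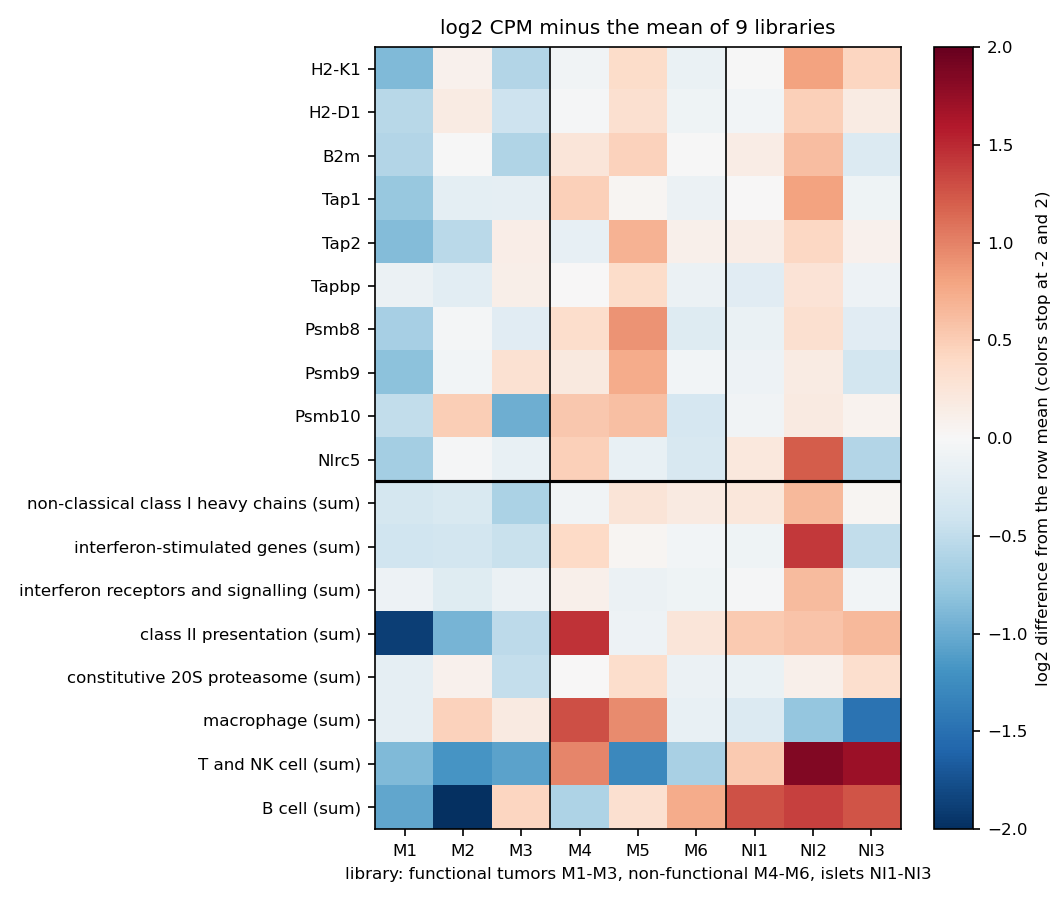
Log2 CPM of each member (upper rows) and of the summed level of 8 gene lists (lower rows) in each library, minus the mean of the 9 libraries, with colors stopping at -2 and 2. NI2 is above the mean for all 10 members and for the interferon-stimulated genes, M4 for class II genes and macrophage markers, and M1 is below the mean for all 10 members.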

How the data were processed

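RNA was sequenced as single-end reads of 75 bases. The authors trimmed them with Trimmomatic 0.38 and quantified transcripts with Salmon 1.4.0 on mm10. The deposited values are whole-number counts per gene, although the table is named for TPM, and they were taken as unscaled between libraries. The counts of NI3 sum to exactly 50400000, for which these sources give no reason, so that scaling of that library by the authors cannot be told from its total. The step from transcripts to genes and the use of strand are not given in the sources used here.

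Gene IDs were matched to GENCODE for GRCm38 (54094 of 54347 genes, 103 symbols shared by 2 genes). Genes with at least 1 CPM in 3 libraries were kept (15532), scaled by TMM and tested with edgeR 4.0.16 in R 4.3.3 (quasi-likelihood, two-sided, Benjamini-Hochberg over all tested genes). Tumors formed a single group of 6 for the comparison with islets, and a fit of 3 groups gave the others. The standard error is the size of the log2 fold change over the square root of F. DESeq2 1.42.0 and limma 3.58.1 were alternatives. The fits of tumors against islets by edgeR, DESeq2 and limma-voom were tested on simulated data, and those of the other comparisons were not. Proteasome ratios used an exact permutation test (SciPy).

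The members and gene lists were chosen with earlier results of these data known. The text names the 10 members, up to 3 genes of each list with the smallest unadjusted p in tumors against islets, and the 5 genes most correlated with the members' mean. Other genes were named outside this rule: Cdk5r1, Psmb5, Psmb6 and Psmb7 for their roles, and, after their values were seen, Cd74, Cd79a, H2-Q1, H2-Q10 and the markers without a count in some library. Some genes that this rule names are not reported here. Leaving out NI1 and M6 together was an alternative chosen after seeing the data. Without molecular identifiers, the count of 3 taken as the floor covers counting error only.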

Additional observations from a re-analysis of the deposited data

How the results depend on the processing

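No member was called in any of the 4 comparisons under any of the 69 alternative counts (the filter, the scaling, mitochondrial genes, the tool, the grouping, the replicate block and each library left out). Of 698 members' log2 fold changes recomputed, 665 kept their direction and 33 changed sign, none of them past the threshold before or after. H2-K1 stayed below 0 in all 4 comparisons under all alternatives, from -1.17 to -0.46 in functional tumors against islets (adjusted p from 0.0633 to 0.523).

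With library totals only, functional tumors against islets turned to 0.33 for Tapbp, 0.081 for Psmb8, 0.36 for Psmb9 and 0.082 for Psmb10, and functional against non-functional tumors to 0.17 for Tapbp and 0.093 for Nlrc5. Without a filter Psmb9 turned to 0.0235 in functional tumors against islets. With limma-voom Psmb10 turned to -0.12 in tumors against islets, and without NI1 and M6 Tapbp turned to -0.0502. The causes were not tested.

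With each library left out in turn, tumors against islets ran from -0.10 to 0.17 for Psmb10, -0.077 to 0.19 for Tapbp, -0.13 to 0.28 for Psmb8, -0.42 to 0.0191 for B2m and -0.89 to 0.0298 for Nlrc5. Functional tumors against islets ran from -0.30 to 0.23 for Psmb9, -0.16 to 0.10 for Tapbp and -0.78 to 0.015 for Psmb10. Non-functional tumors against islets ran from -0.15 to 0.29 for B2m, -0.23 to 0.21 for Tap2, -0.0299 to 0.26 for Tapbp, -0.25 to 0.0244 for H2-D1, -0.34 to 0.19 for Tap1 and -0.75 to 0.17 for Nlrc5. The log2 ratio differences ran from 0.13 to 0.66 for Psmb8 to Psmb5, -0.17 to 0.24 for Psmb9 to Psmb6 and -0.19 to 0.0535 for Psmb10 to Psmb7.

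Functional tumors and islets share the numbers 1 to 3, but same-numbered libraries did not deviate together (correlations -0.05, 0.03 and -0.16). With the replicate block, 0 members were called and H2-K1 had an adjusted p of 0.252. Over all genes, tumors against islets gave 0 higher and 40 lower by edgeR, 770 higher and 493 lower by DESeq2, and 0 higher and 33 lower by limma-voom.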
